A study of Mus musculus with 12 samples.

Results

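The genes described here are 10 genes of base excision repair, the pathway that removes damaged or misplaced single bases from DNA: Ung, Smug1, Tdg, Mbd4, Apex1, Polb, Xrcc1, Lig3, Parp1 and Neil3. They were picked as members of the pathway and found by gene symbol, with no threshold on their values, among the 53465 genes of the deposited expression table, and all 10 were found and passed the filter on low counts in every comparison. RNA was sequenced from LSKs (lineage-negative, Sca-1 and c-Kit positive bone marrow cells, which contain the hematopoietic stem cells). The 4 groups of 3 libraries were Tespa1+/+ and Tespa1-/- LSKs from untreated mice, and Tespa1+/+ and Tespa1-/- LSKs taken on day 9 after an injection of 5-fluorouracil (5-FU), a pyrimidine analogue that kills dividing cells. Tespa1 encodes a signalling protein first described in thymocytes. The mice were 8 to 10 weeks of age, the Tespa1-/- allele (B6.129S-Tespa1tm1Smoc) had been backcrossed to C57BL/6 for more than 6 generations, and the labels call the Tespa1+/+ mice littermates. It is a germline allele and not one deleted in LSKs alone.

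Base excision repair starts when a DNA glycosylase flips a wrong base out of the helix and cuts it off. An AP endonuclease then nicks the strand at the empty sugar, a polymerase fills the gap and a ligase seals it, while PARP1 senses the nick and recruits the repair proteins. 5-FU blocks thymidylate synthesis and leads to uracil and fluorouracil in DNA, which are substrates of the uracil glycosylases. The comparisons address whether the transcripts of the pathway differed on day 9 after 5-FU and without Tespa1. Changes at earlier times after 5-FU could not be seen.

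Of the 10 genes, Neil3 was the only one called in any of the 5 comparisons made. It was called with 5-FU in Tespa1-/- LSKs, between the genotypes after 5-FU and in the difference of the 5-FU effects. Of all genes tested, 19.4%, 13.1% and 5.01% were called in these comparisons. The latter 2 calls of Neil3 were lost in 6 of 6 and 11 of 12 fits that left out 1 library. Neil3 stood at 31.5 ± 2.31 CPM (read counts scaled to the library total with TMM factors; mean ± SD, n = 3) in untreated Tespa1+/+ LSKs, at 28.9 ± 0.323 CPM in untreated Tespa1-/- LSKs and at 31.4 ± 0.346 CPM in Tespa1+/+ LSKs after 5-FU, and at 41.3 ± 2.78 CPM in Tespa1-/- LSKs after 5-FU. A gene was called when its p-value in edgeR's quasi-likelihood test, adjusted by Benjamini-Hochberg over all genes tested, was below 0.05. The other 9 genes, among them all 4 glycosylases that act on uracil, were called in none of the comparisons, and their lowest adjusted p was 0.100, that of Apex1 with 5-FU in Tespa1-/- LSKs.

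The total of gene counts ran from 22118154 to 28275079 per library. A chosen floor of 3 counts corresponded to 0.107 to 0.136 CPM, a limit that covers counting error only. All 10 genes lay above it in every library. Nothing in the labels states that the 3 libraries of a group came from separate mice, so the p-values measure the spread between these libraries. Reads on Tespa1 itself were fewer but not absent in the Tespa1-/- libraries: they ran from 43.0 to 49.8 CPM in untreated Tespa1+/+ LSKs and from 34.5 to 34.9 CPM in untreated Tespa1-/- LSKs, and from 47.2 to 57.5 CPM and from 17.3 to 20.8 CPM after 5-FU. Which exons these reads cover cannot be read from counts per gene. Kit, which encodes c-Kit, was present in every group (354 to 367 CPM in untreated and 329 to 349 CPM in treated Tespa1-/- LSKs, 387 to 431 CPM and 460 to 474 CPM in Tespa1+/+ LSKs), as was Ly6a, which encodes Sca-1. Ly6a ran from 18.4 to 26.2 CPM in untreated Tespa1+/+ and 12.5 to 25.4 CPM in untreated Tespa1-/- LSKs, and from 21.2 to 45.2 CPM in treated Tespa1+/+ and 10.6 to 20.2 CPM in treated Tespa1-/- LSKs, where the treated groups did not overlap. The Tespa1-/- libraries after 5-FU stood apart from the other 9 in neutrophil and erythroid markers. The 10 neutrophil genes summed to between 1048 and 1053 CPM there and to at most 8.42 CPM elsewhere. The 7 erythroid genes summed to 319 to 351 and at most 53.5 CPM. The 6 B cell genes summed to 197 to 201 CPM in treated Tespa1+/+ and 216 to 232 CPM in treated Tespa1-/- LSKs. Untreated, they summed to 45.6 to 51.9 and 32.9 to 36.3 CPM. The 6 monocyte and macrophage genes summed to 209 to 219 and 223 to 231 CPM in the same treated groups. The 5 T cell genes summed to 4.70 to 8.76 CPM in treated Tespa1-/- LSKs, which overlapped both untreated groups. In bulk samples such as these, fewer cells of a type and less RNA per cell cannot be told apart.

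Levels of different genes were compared in FPKM, which divides by a length per gene set by the authors. The lengths implied by counts and FPKM ran from 2610 bases for Apex1 to 16431 for Lig3, with 9610 for Xrcc1, 8700 for Ung and 4116 for Polb. The order of the levels rests on them. By CPM, without length, Lig3 (mean 75.4) and Xrcc1 (41.4) lay above Apex1 (34.6), and Ung (28.3) lay above Polb (26.6). Parp1, the nick sensor, was the most abundant at a mean of 54.6 FPKM over the 12 libraries (53.6 to 57.2), and its range did not overlap that of any other of the 10 genes. Apex1, the main AP endonuclease, came next at 13.3 FPKM (10.6 to 15.9). Polb, the gap-filling polymerase, followed at 6.47 FPKM (5.36 to 7.43), Neil3 at 5.05 FPKM (4.30 to 6.75), Lig3, the ligase, at 4.59 FPKM (4.05 to 5.18), and Xrcc1, the scaffold that binds Lig3, at 4.31 FPKM (3.54 to 5.25). The glycosylases acting on uracil or on mismatched thymine were lowest on this scale: Ung at 3.25 FPKM (2.13 to 3.89), Tdg at 2.22 FPKM (1.73 to 2.96), Mbd4 at 2.10 FPKM (1.53 to 2.73) and Smug1 at 0.805 FPKM (0.302 to 1.2). From Polb down to Mbd4 each gene's range overlapped that of the next, so the order of these neighbours did not exceed their spread, while Apex1 and Polb, and Mbd4 and Smug1, did not overlap.

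**Figure D1:**
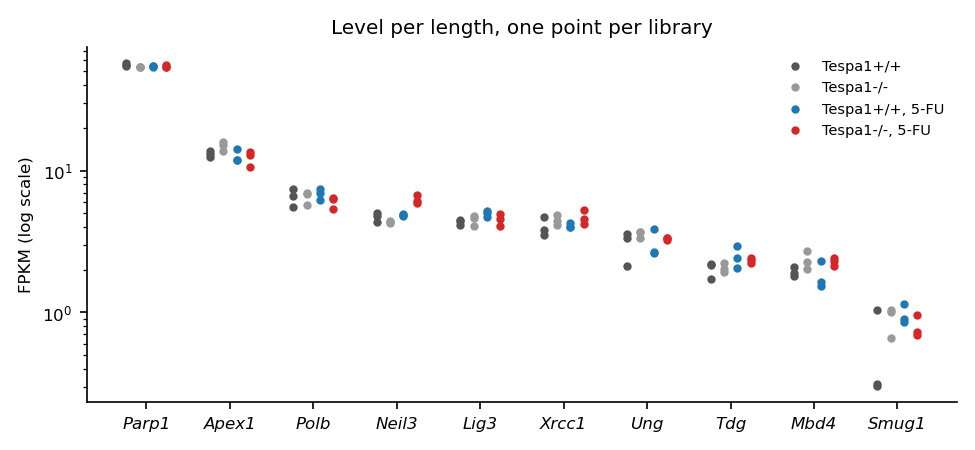
Level of each of the 10 genes in FPKM on a log axis, 1 point per library, coloured by group and ordered by the mean over the 12 libraries. Parp1 lies between 53.6 and 57.2 FPKM, Smug1 from 0.302 to 1.2 FPKM, and the ranges of the genes from Polb to Mbd4 overlap from neighbour to neighbour.

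The spread over the 12 libraries, as the coefficient of variation of CPM, was smallest for Parp1 at 2.59% and for Lig3 at 7.35%. It lay between 10.3% and 16.7% for Polb (10.3%), Xrcc1 (11.3%), Apex1 (11.5%), Tdg (13.1%), Neil3 (15.6%), Ung (16.2%) and Mbd4 (16.7%), and reached 34.1% for Smug1, which had the fewest reads.

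Each gene was then followed through the 2 comparisons of 5-FU with no treatment, the 2 comparisons of genotypes and the difference of the 5-FU effects between the genotypes (the interaction, the log2 fold change in Tespa1-/- minus that in Tespa1+/+ LSKs). Comparisons that use the same libraries are not independent of each other. The share of all tested genes that was called was 7.95% for 5-FU in Tespa1+/+ LSKs and 19.4% for 5-FU in Tespa1-/- LSKs. It was 5.23% between the genotypes untreated, 13.1% between the genotypes after 5-FU and 5.01% for the interaction. Of the 10 genes, 0, 1, 0, 1 and 1 were called in these comparisons in the same order, and the gene was Neil3 each time. By unadjusted p-values below 0.05 the counts were 0, 2, 0, 1 and 1, the added gene being Apex1 after 5-FU in Tespa1-/- LSKs, where 21.5%, 32.3%, 18.5%, 26.7% and 18.7% of all genes passed. With a fold change above 1.5 required as well, 0 of the 10 passed in each comparison, beside 9.88%, 14.4%, 6.74%, 11.7% and 10.4% of all genes. DESeq2 also called 0 of the 10 for 5-FU in Tespa1+/+ LSKs and 0 between the untreated genotypes, where it called 2062 and 1427 of all genes.

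**Figure D2:**
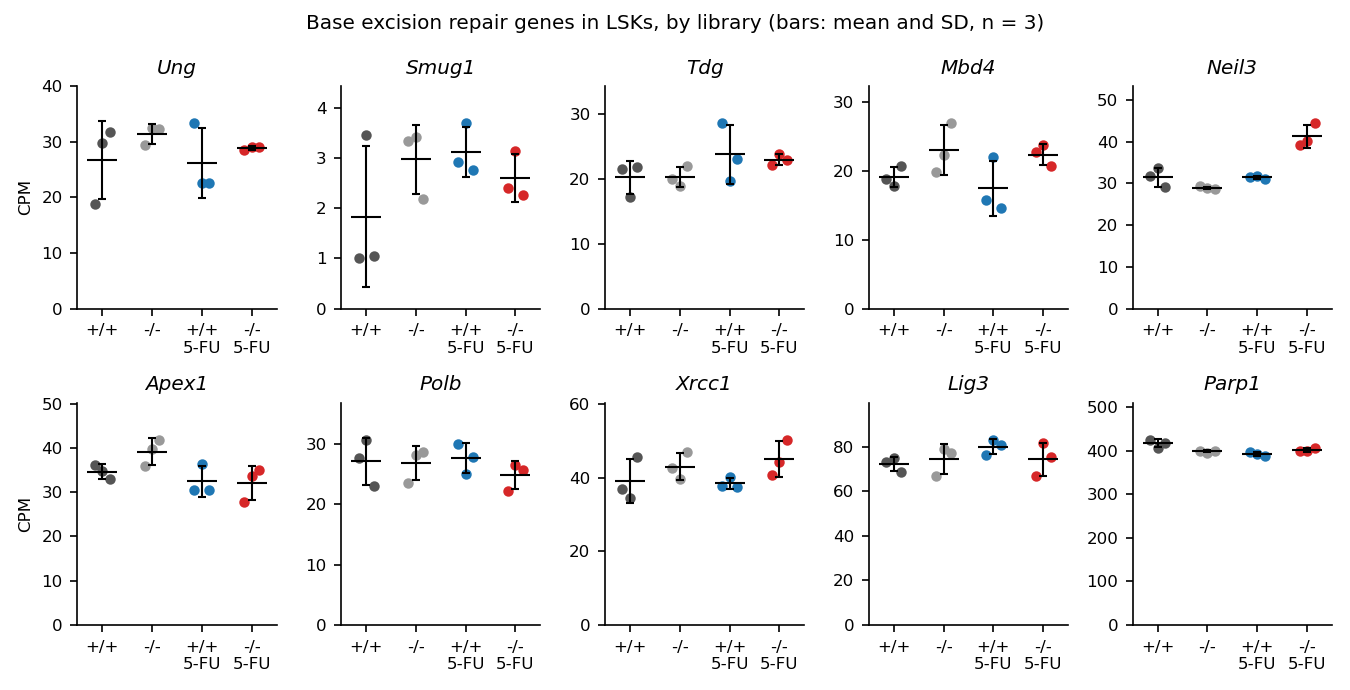
CPM of the 10 genes in each library, with the mean and SD of each group of 3 as bars and each panel on its own axis from 0. Neil3 in the 3 Tespa1-/- libraries after 5-FU, from 39.3 to 44.5 CPM, lies above its other 9 libraries, which end at 33.7 CPM.

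The uracil glycosylases come first in the pathway. Ung encodes the main nuclear and mitochondrial uracil-DNA glycosylase (chr5:114130386-114139323, plus strand, GRCm38). Its libraries read 18.7, 29.7 and 31.7 CPM in untreated Tespa1+/+ LSKs and 33.3, 22.5 and 22.6 CPM after 5-FU. In Tespa1-/- LSKs they read 29.3, 32.4 and 32.3 CPM untreated and 28.5, 29.1 and 29.0 CPM after 5-FU. One untreated Tespa1+/+ library was lower than all others, and the Tespa1-/- groups did not overlap, the treated libraries being the lower ones by a small margin. The log2 fold change with 5-FU was -0.03 (SE 0.23, adjusted p = 0.966) in Tespa1+/+ and -0.13 (SE 0.09, adjusted p = 0.356) in Tespa1-/- LSKs, and that of Tespa1-/- against Tespa1+/+ was 0.24 untreated and 0.14 after 5-FU (adjusted p = 0.566 and 0.661). With 1 library left out these ran from 0.04 to 0.38 and from 0.04 to 0.35.

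Smug1, a uracil glycosylase that also removes 5-hydroxymethyluracil, was the least covered of the 10 genes. Untreated Tespa1+/+ libraries held 0.999, 3.47 and 1.04 CPM, and treated ones 2.92, 3.70 and 2.77 CPM. For Tespa1-/- LSKs the values were 3.34, 3.42 and 2.18 CPM untreated and 2.41, 3.14 and 2.26 CPM after 5-FU. Thus 2 of the 3 untreated Tespa1+/+ libraries were below all others and the third was among the highest. The fold changes were accordingly wide: 0.78 on the log2 scale with 5-FU in Tespa1+/+ LSKs (95% interval -0.42 to 1.97, adjusted p = 0.459) and -0.21 in Tespa1-/- LSKs (-0.88 to 0.47, adjusted p = 0.684). The interaction was -0.97 (-2.31 to 0.37, adjusted p = 0.456). Without replicate 2 of untreated Tespa1+/+ LSKs the change with 5-FU in Tespa1+/+ LSKs was 1.61 and the interaction -1.81, still not called (adjusted p = 0.0891 and 0.0538). The untreated Tespa1+/+ libraries held 28, 78 and 23 counts of Smug1. Without replicate 1 or replicate 3 of them the change with 5-FU in Tespa1+/+ LSKs was 0.47 or 0.50. The size of the fold change thus depended on which of these libraries was left out.

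Tdg encodes thymine-DNA glycosylase, which removes thymine and uracil mispaired with guanine and the oxidised forms of 5-methylcytosine (chr10:82629828-82650799, plus strand). It read 21.6, 17.3 and 21.9 CPM in untreated and 28.7, 19.7 and 23.2 CPM in treated Tespa1+/+ LSKs, and 20.1, 19.0 and 22.1 CPM in untreated and 22.2, 23.8 and 22.9 CPM in treated Tespa1-/- LSKs. The Tespa1-/- groups did not overlap, but their log2 fold change of 0.16 (SE 0.11) was not called (adjusted p = 0.367), nor was that of 0.24 (SE 0.18) in Tespa1+/+ LSKs (adjusted p = 0.504). The genotypes differed by 0.01 untreated and by -0.06 after 5-FU on the log2 scale. A related pseudogene, Tdg-ps, had 162 to 310 counts per library, and reads of the pair may be divided between them.

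Mbd4, a glycosylase that binds methylated CpG and removes thymine or uracil opposite guanine (chr6:115840697-115853371, minus strand), was measured at 18.8, 17.8 and 20.7 CPM untreated and 15.8, 22 and 14.7 CPM after 5-FU in Tespa1+/+ LSKs. Tespa1-/- LSKs had 19.9, 22.4 and 27.0 CPM untreated and 22.7, 23.7 and 20.7 CPM after 5-FU. All groups overlapped in the 4 pairwise comparisons. The means were higher in Tespa1-/- than in Tespa1+/+ LSKs both untreated (log2 fold change 0.27, SE 0.14, adjusted p = 0.366) and after 5-FU (0.35, SE 0.18, adjusted p = 0.245), without a call.

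**Figure D3:**
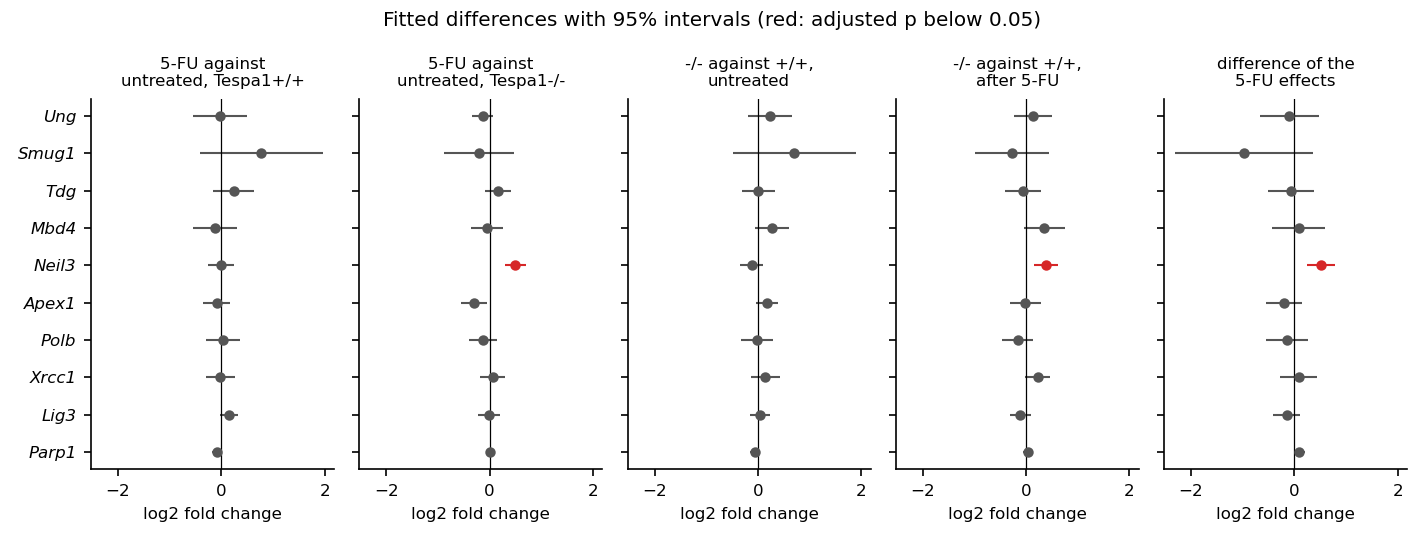
Log2 fold change of each gene in the 5 comparisons (points) with its 95% interval (lines), with called genes in red. Neil3 is red at 0.50, 0.39 and 0.51, and the widest intervals are those of Smug1, down to -2.31 for the difference of the 5-FU effects.

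Neil3 encodes a glycosylase of the NEIL family that removes oxidised bases, prefers single-stranded DNA, and unhooks interstrand crosslinks at replication forks; it is known for its expression in proliferating cells. It lies at chr8:53586867-53639065 on the minus strand (GRCm38). Its 3 untreated Tespa1+/+ libraries read 31.7, 33.7 and 29.1 CPM, and the treated ones 31.5, 31.7 and 31.1 CPM. In untreated Tespa1-/- LSKs the values were 29.3, 28.9 and 28.6 CPM, and after 5-FU 39.3, 40.2 and 44.5 CPM. The 3 treated Tespa1-/- libraries were thus above all other 9, while the treated Tespa1+/+ libraries lay within the range of the untreated ones.

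With 5-FU Neil3 rose in Tespa1-/- LSKs by a log2 fold change of 0.50 (SE 0.09, 95% interval 0.30 to 0.70, 1.41-fold, adjusted p = 0.00418), and this was called in every alternative fit with the same threshold (adjusted p between 7.28e-05 and 0.0236). In Tespa1+/+ LSKs its log2 fold change with 5-FU was -0.00 (SE 0.11, interval -0.26 to 0.25, adjusted p = 0.994). Between the genotypes it was -0.12 untreated (SE 0.10, adjusted p = 0.582) and 0.39 after 5-FU (SE 0.10, interval 0.16 to 0.62, 1.31-fold, adjusted p = 0.0349). The interaction was 0.51 (SE 0.13, interval 0.24 to 0.79, adjusted p = 0.0358). The 3 calls share the 3 treated Tespa1-/- libraries. The call between the genotypes after 5-FU was lost in each of the 6 fits that left out 1 of its libraries (log2 fold change 0.34 to 0.43, adjusted p 0.0629 to 0.116). It was also lost in 1 of 7 fits with other settings. The interaction call was lost in 11 of 12 fits that left out 1 library (0.44 to 0.57, highest adjusted p = 0.0992). It held without replicate 3 of untreated Tespa1+/+ LSKs (adjusted p = 0.0263), and was lost in 3 of 6 fits with other settings. At the study's own threshold of an unadjusted p below 0.05 with a fold change above 1.5, Neil3 was called in no comparison, its fold changes being below 1.5.

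Other measures moved with Neil3. A list of 20 genes of the G2 and M phases of the cell cycle summed to between 5144 and 5230 CPM in treated Tespa1-/- LSKs, and to 3466 to 3576 CPM in treated Tespa1+/+, 3610 to 3681 CPM in untreated Tespa1-/- and 3646 to 3699 CPM in untreated Tespa1+/+ LSKs. The 10 neutrophil genes summed to 0.770 to 1.60 CPM and 4.70 to 5.85 CPM in untreated Tespa1+/+ and Tespa1-/- LSKs, and to 3.66 to 8.42 CPM and 1048 to 1053 CPM in the treated ones, with 4, 2, 2 and 0 of the 10 at 0 in all libraries of the 4 groups. The 7 erythroid genes ran from 19.8 to 24.2, 40.6 to 49.1, 41.3 to 53.5 and 319 to 351 CPM in the same order, with none at 0 throughout a group. The 4 granule genes of myeloid progenitors (Mpo, Elane, Prtn3 and Ctsg) ran from 2524 to 2617, 3446 to 3641, 2466 to 2675 and 4516 to 4805 CPM, and 4 of 4 were called higher in Tespa1-/- LSKs after 5-FU and 3 of 4 in the interaction. They were also called higher, 3 of 4 each time, between the untreated genotypes and with 5-FU in Tespa1+/+ LSKs, where Neil3 was not called. The 8 stem and progenitor genes, Kit and Ly6a included, went from 1520 to 1592 CPM in untreated Tespa1+/+ LSKs to 744 to 814 CPM in treated Tespa1-/- LSKs, with 1267 to 1306 and 1239 to 1294 CPM in untreated Tespa1-/- and treated Tespa1+/+ LSKs. These sums are made up mostly of Flt3, Cd34 and Kit, and the genes of the list did not all move one way with 5-FU: 2 were called higher and 2 lower in Tespa1+/+ LSKs, and 3 higher and 2 lower in Tespa1-/- LSKs. Between the genotypes 0 were called higher and 3 lower in untreated Tespa1-/- LSKs, and 0 higher and 6 lower after 5-FU (median log2 fold change -0.84), and the interaction had 0 higher and 3 lower. Slamf1, for example, had 2.76 to 3.19 CPM in untreated and 12.4 to 16.6 CPM in treated Tespa1-/- LSKs, while Flt3 had 491 to 496 and 162 to 175 CPM. The part of the cell cycle and of other cell types in the Neil3 result was not tested.

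The sequence before the start of Neil3 is shown because it was the gene that was called, beside that of Parp1, the steadiest. Promoters of 9 of the 10 genes were matched in RefSeq (GRCm38.p6), with no entry for Polb, and the 250 bases before the start were searched on both strands for the E2F-type letters TTTCCCGC, TTTCGCGC, TTTGCCGC and TTTGGCGC, for CCAAT, for TTTGAA of the cell-cycle homology region and for the GC box GGGCGG; none of these contains another. The 250 bases before Neil3 (chr8:53639066-53639315, minus strand) hold none of them, so no letter is in capitals. Those before Parp1 (chr1:180568641-180568890, plus strand) hold 3 GC boxes on the opposite strand, which read CCGCCC here and are printed in capitals.
Neil3: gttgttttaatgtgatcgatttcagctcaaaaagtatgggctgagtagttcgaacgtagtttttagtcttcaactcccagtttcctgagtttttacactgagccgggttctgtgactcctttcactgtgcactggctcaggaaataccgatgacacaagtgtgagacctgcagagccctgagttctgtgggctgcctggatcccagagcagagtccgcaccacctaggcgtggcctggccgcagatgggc
Parp1: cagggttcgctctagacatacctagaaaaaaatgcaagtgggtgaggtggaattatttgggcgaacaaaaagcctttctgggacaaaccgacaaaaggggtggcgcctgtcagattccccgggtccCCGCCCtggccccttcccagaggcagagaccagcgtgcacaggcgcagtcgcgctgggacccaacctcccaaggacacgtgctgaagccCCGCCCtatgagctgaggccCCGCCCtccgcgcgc
The E2F-type letters were in the 250 bases of 1.86% of 32851 promoters and in 0 of the 9. CCAAT was in 33.8% of all promoters and in those of Apex1, Mbd4, Smug1, Tdg and Xrcc1, the GC box in 32.7% and in those of Apex1, Mbd4, Parp1 and Ung, and TTTGAA in 16% and in none of the 9. The start used for Smug1 lies outside its gene model in the deposited table (chr15:103153307-103158002, minus strand). The 250 bases used for Xrcc1 (chr7:24546449-24546698), with its CCAAT match, lie inside its gene model, which starts at 24546289. A match of letters is a description of the sequence and not a binding site.

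Apex1, which encodes APE1, the endonuclease that nicks the strand at the abasic site, lies at chr14:50924968-50927139 on the plus strand. Untreated Tespa1+/+ LSKs had 36.2, 34.7 and 33.0 CPM and treated ones 30.5, 36.5 and 30.4 CPM. Untreated Tespa1-/- LSKs had 35.9, 39.7 and 41.9 CPM and treated ones 27.7, 33.6 and 35.0 CPM. All treated Tespa1-/- libraries were below all untreated ones, by a margin of less than 1 CPM between the nearest libraries. The log2 fold change of -0.30 (SE 0.11, interval -0.55 to -0.04) had an unadjusted p of 0.0263 by edgeR and was not called after adjustment. In Tespa1+/+ LSKs it was -0.09 (SE 0.12, adjusted p = 0.719), and the interaction was -0.19 (SE 0.16, adjusted p = 0.589). The genotypes stood 0.18 apart untreated and -0.02 after 5-FU (adjusted p = 0.375 and 0.950). Apex1 overlaps Pip4p1 on the other strand over 1072 bases, and Pip4p1 had 308 to 494 counts per library against 729 to 1016 for Apex1; whether the counting used strand is not given in the sources used here.

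Polb, Xrcc1 and Lig3 fill and seal the gap. Polb, DNA polymerase beta (chr8:22628126-22653435, minus strand), read 27.7, 30.8 and 23.1 CPM untreated and 30.1, 25.1 and 27.8 CPM after 5-FU in Tespa1+/+ LSKs. In Tespa1-/- LSKs Polb read 23.6, 28.2 and 28.7 CPM untreated and 22.2, 26.5 and 25.8 CPM after 5-FU. Its groups overlapped in all 4 pairwise comparisons, and its log2 fold changes lay between -0.16 and 0.03 (lowest adjusted p 0.493).

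Xrcc1 has no known enzymatic activity and holds Polb and Lig3 at the break (chr7:24546289-24573440, plus strand). Its values were 37.1, 34.4 and 45.7 CPM untreated and 37.9, 40.3 and 37.5 CPM after 5-FU in Tespa1+/+ LSKs, and 42.6, 39.6 and 46.9 CPM untreated and 40.8, 44.3 and 50.4 CPM after 5-FU in Tespa1-/- LSKs. After 5-FU the Tespa1-/- libraries were all above the Tespa1+/+ ones, the nearest being 40.8 and 40.3 CPM, and the log2 fold change of 0.22 (SE 0.11, interval -0.02 to 0.47) was not called (adjusted p = 0.231).

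Lig3, which encodes DNA ligase III (chr11:82781108-82804274, plus strand), read 73.2, 75.1 and 68.7 CPM in untreated and 76.5, 83.2 and 80.6 CPM in treated Tespa1+/+ LSKs. The treated Tespa1+/+ libraries were all higher than the untreated ones, with a log2 fold change of 0.15 (SE 0.08, adjusted p = 0.334). In Tespa1-/- LSKs Lig3 read 67.1, 79.2 and 77.2 CPM untreated and 66.8, 81.5 and 75.2 CPM after 5-FU, with overlapping groups and a log2 fold change of -0.01 (SE 0.09, adjusted p = 0.944). Lig3 overlaps Rffl on the other strand over 1826 bases, and Rffl had 337 to 857 counts per library.

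Parp1 encodes the enzyme that binds strand breaks and makes poly(ADP-ribose) (chr1:180568924-180601254, plus strand). Its libraries read 425, 407 and 418 CPM in untreated Tespa1+/+ LSKs, 398, 393 and 388 CPM after 5-FU, 400, 396 and 399 CPM in untreated Tespa1-/- LSKs and 399, 400 and 406 CPM after 5-FU. Untreated Tespa1+/+ LSKs were the highest group, and it overlapped neither the treated Tespa1+/+ nor the untreated Tespa1-/- libraries. The differences were small: the fold change was 0.944 (95% interval 0.881 to 1.01) with 5-FU in Tespa1+/+, 1.0 (0.947 to 1.06) with 5-FU in Tespa1-/-, 0.957 (0.900 to 1.02) between the genotypes untreated and 1.02 (0.957 to 1.09) between them after 5-FU. None was called (lowest adjusted p 0.321).

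The groups of libraries did not overlap for 2 of the 10 genes with 5-FU in Tespa1+/+ LSKs (Lig3 and Parp1), against 28.5% of all genes tested. With 5-FU in Tespa1-/- LSKs they did not overlap for 4 (Ung and Apex1 lower, Tdg and Neil3 higher), against 38.6%. Between the untreated genotypes it was 1 gene (Parp1, lower in Tespa1-/-) against 25.6%, and after 5-FU 3 genes (Neil3, Xrcc1 and Parp1, higher in Tespa1-/-) against 33.0%. Set against the shares of all genes, the count of 4 was about level with the background and the other counts were at or below it. The 95% interval of the fold change stayed within 1.5-fold in either direction for 8 of the 10 genes in both comparisons of 5-FU, for 7 in both comparisons of genotypes and for 6 in the interaction. The median log2 fold change of the 10 genes was -0.01 with 5-FU in Tespa1+/+, -0.03 with 5-FU in Tespa1-/-, 0.09 between the genotypes untreated, 0.00 after 5-FU and -0.08 for the interaction, beside medians over all genes of 0.01, -0.01, 0.01, -0.01 and -0.02. The 10 genes summed to 684 to 693 and 671 to 706 CPM in untreated Tespa1+/+ and Tespa1-/- LSKs, and to 659 to 685 and 672 to 712 CPM after 5-FU.

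The wider set of base excision and single-strand break repair genes as reported here held 23 further genes, of which 22 were tested. Neil2, a glycosylase of the NEIL family, had 0 to 13 counts and was left out by the filter. None of the 22 was called for 5-FU in Tespa1+/+ LSKs or between the untreated genotypes. With 5-FU in Tespa1-/- LSKs 3 rose and 1 fell (median log2 fold change 0.07). Between the genotypes after 5-FU 3 were higher in Tespa1-/- LSKs and none lower (median 0.02), and 1 was called in the interaction (median 0.10). These 4, 3 and 1 of 22 stand beside the shares of all genes called given above (19.4%, 13.1% and 5.01%).

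Among the genes of this wider set that rose, Aplf and Tdp1 process DNA ends. Aplf, a nuclease and histone chaperone that binds poly(ADP-ribose), ran from 11.4 to 15.4 CPM in untreated and 17.6 to 26.8 CPM in treated Tespa1-/- LSKs, a log2 fold change of 0.70 (adjusted p = 0.0295), and was higher than in treated Tespa1+/+ LSKs (12.3 to 14 CPM) by 0.71 (adjusted p = 0.0310). Tdp1, which removes topoisomerase 1 from DNA ends, rose with 5-FU in Tespa1-/- LSKs from 24.0 to 26.3 CPM to 31.6 to 32.6 CPM (log2 fold change 0.32, adjusted p = 0.0368).

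Lig1, the replicative ligase of long-patch repair, was the gene of the wider set called in the interaction (0.39 on the log2 scale, SE 0.08, adjusted p = 0.0131). It was higher in treated Tespa1-/- LSKs (247 to 287 CPM) than in treated Tespa1+/+ LSKs (203 to 215 CPM) by 0.33 (adjusted p = 0.0109), and its untreated groups lay at 222 to 239 CPM in Tespa1+/+ and 219 to 224 CPM in Tespa1-/- LSKs. Its rise with 5-FU in Tespa1-/- LSKs was 0.24 (adjusted p = 0.0226). Pold1, the catalytic subunit of DNA polymerase delta, was higher by 0.27 in treated Tespa1-/- than in treated Tespa1+/+ LSKs (adjusted p = 0.0231). Pold3, an accessory subunit, fell by 0.36 on the log2 scale with 5-FU in Tespa1-/- LSKs, from 86.4 to 92.4 CPM to 64.6 to 73.6 CPM (adjusted p = 0.00720). Fen1, the flap endonuclease of the long patch, was spread between 28.4 and 118 CPM among untreated Tespa1+/+ libraries and was called in no comparison. Fen1 was named after its values were seen.

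**Figure D4:**
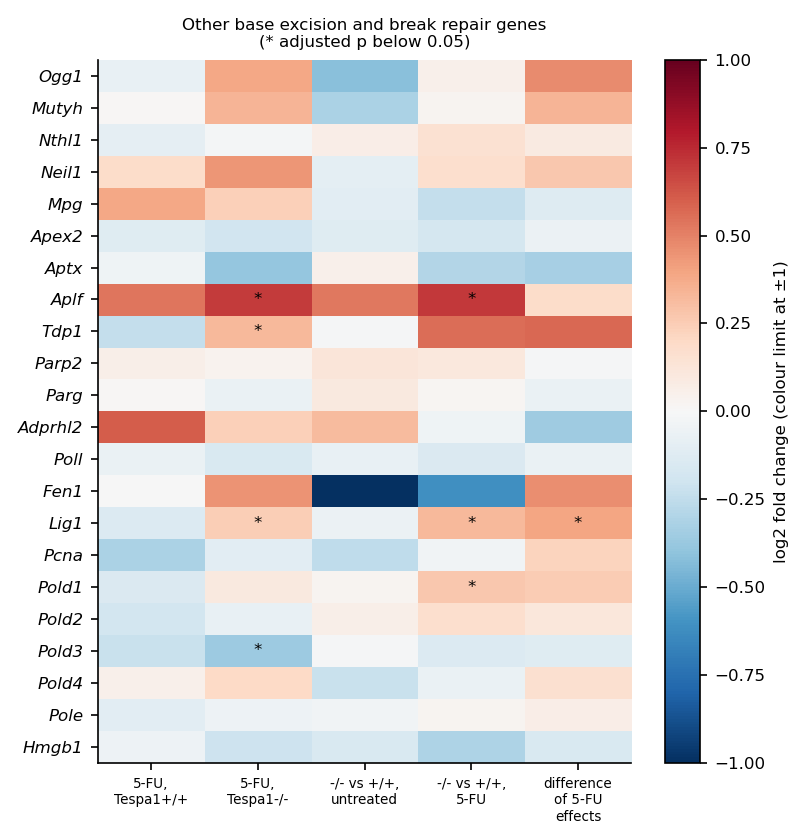
Log2 fold change of the 22 tested genes of the wider repair list (rows) in the 5 comparisons (columns), with an asterisk where the adjusted p is below 0.05. Aplf (0.70) is the darkest asterisked cell for 5-FU in Tespa1-/- LSKs, the first 2 columns differ in their asterisks (0 and 4), and the value of Fen1 between the untreated genotypes (-1.07) lies past the colour limit.

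The 20 G2 and M phase genes and 23 S-phase genes gave a measure of the cell cycle beside these values. With 5-FU in Tespa1+/+ LSKs 1 gene fell in each list, Top2a by 0.23 and Mcm5 by 0.30 on the log2 scale, and none rose. With 5-FU in Tespa1-/- LSKs 18 of the 20 G2 and M genes rose and none fell (median 0.52), among them Plk1 (0.87), Ccnb2 (0.82) and Ccna2 (0.67), and 8 of the 23 S-phase genes rose and 2 fell (median 0.05), with Rrm2 at 1.11, Ccne1 at 0.97, Clspn at 0.51, Mcm6 at -0.24 and Pola1 at -0.24. Between the untreated genotypes 0 genes of either list were called. Between the genotypes after 5-FU 19 of 20 and 11 of 23 were higher in Tespa1-/- LSKs (medians 0.63 and 0.13), led by Aurka (1.03), Plk1 (0.92) and Ube2c (0.87), and by Ccne1 (0.84), Rrm2 (0.79) and Cdc6 (0.62). In the interaction 16 of 20 and 5 of 23 were called, all positive (medians 0.59 and 0.17), led by Ccnb2 (1.0), Ube2c (0.94) and Ccna2 (0.88), and by Rrm2 (0.83), Clspn (0.55) and Cdc6 (0.52).

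**Figure D5:**
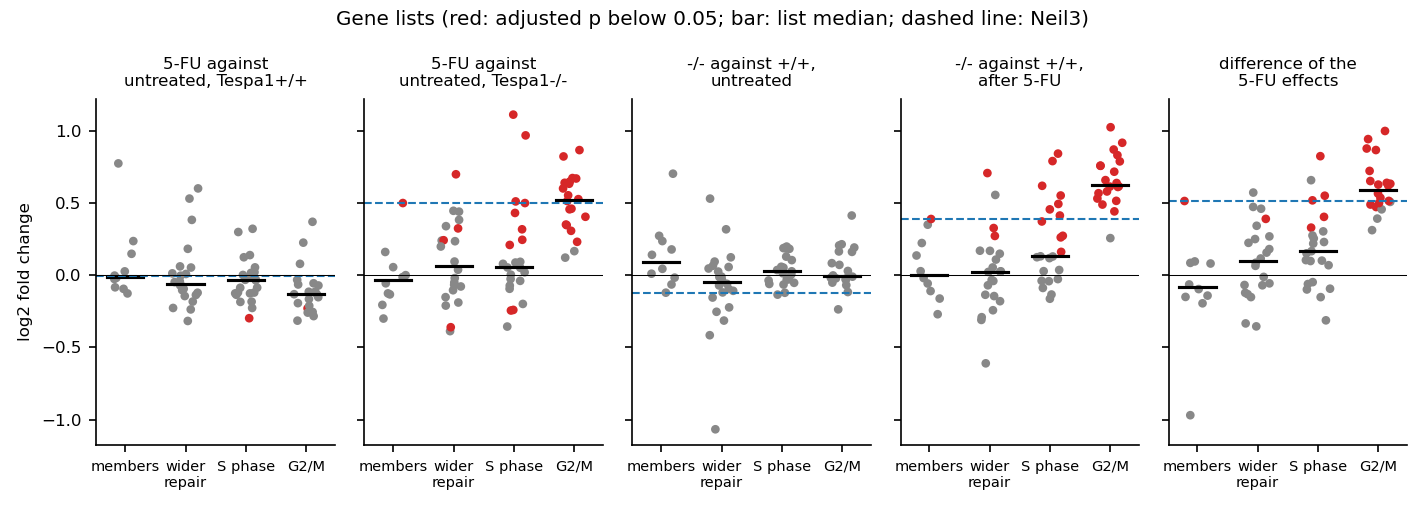
Log2 fold change of each gene of 4 lists in the 5 comparisons, with called genes in red, list medians as bars and the value of Neil3 as a dashed line. With 5-FU in Tespa1-/- LSKs the line, at 0.50, lies near the G2 and M median of 0.52, and 9 of the 10 base excision repair genes are grey.

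Set beside these lists, the values of Neil3 lay within the ranges of the G2 and M, the S-phase and the wider repair genes alike. Of the G2 and M genes, 11 of 20 had a larger log2 fold change than Neil3 with 5-FU in Tespa1-/- LSKs, 19 of 20 between the genotypes after 5-FU and 13 of 20 in the interaction. Of the 23 S-phase genes 3, 7 and 4 lay above Neil3 in the same comparisons, and of the 22 wider repair genes 1, 2 and 1.

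The genes whose profile over the 12 libraries was most like that of Neil3, by the Euclidean distance between centred log2(CPM + 1) values, were Grk6 (distance 0.221), Ncapg2 (0.246) and Rnf123 (0.280), among 6316 genes with a mean of at least 10 CPM and an SD at least 0.8 times that of Neil3, where a flat profile lay at 0.680. For the uracil glycosylases the nearest genes were Pinx1 for Ung (0.502, flat profile 0.822), Ndor1 for Smug1 (0.831, flat 1.38), Gm37474 for Tdg (0.284, flat 0.585) and Tubg1 for Mbd4 (0.407, flat 0.784). They were Rxrb for Apex1 (0.282, flat 0.537), Tbkbp1 for Polb (0.299, flat 0.484), Klc1 for Xrcc1 (0.265, flat 0.520) and Ralgapa2 for Lig3 (0.262, flat 0.352). For Parp1 the nearest gene, Dock8, lay at 0.115 and a flat profile at 0.122. The distance is a description over 12 libraries that share depth and group.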

How the data were processed

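RNA-seq counts of LSKs from 12 libraries in 4 groups of 3 were used, with groups taken from the labels. The authors deposited whole-number read counts per gene, without normalization, beside FPKM values, which the authors computed from those counts. The submitters' processing notes name CASAVA 1.8, HISAT2, StringTie, edgeR and GRCm38 without saying what each did. The kit is stranded and selects poly-A RNA, and the strand setting of the counting is not given in the sources used here. FPKM served only to compare levels between genes.

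Counts were filtered with filterByExpr (minimum count 10), scaled by TMM and tested with the quasi-likelihood test of edgeR 4.0.16 (R 4.3.3) on the 6 libraries of each comparison, and on all 12 for the interaction, with Benjamini-Hochberg adjustment over all genes tested. No value of the table selected the 10 genes, but they and the lists were chosen with earlier results of these data known. All 10 were named, with up to 3 called genes in each direction per list and comparison and the nearest profile per gene, or the nearest 3 for Neil3, of the 3 found for each, and the GC box was added to the motifs after the promoters had been read. One gene of the wider repair list is not reported here and was left out of all counts of that list. The fits were tested on simulated data. Replicates differed beyond sampling noise (median chi-square per gene 2.08 to 5.87, 0.455 from sampling alone). Replicate numbers did not pair libraries: correlations of same-numbered libraries' deviations ran from -0.06 to 0.03. Positions and overlaps are from the deposited table and GENCODE M21, and promoters from RefSeq. Alternatives were DESeq2 1.42.0, RLE size factors, library totals, no filter, a minimum of 10 counts per library, 1 fit of all 12 libraries, the replicate block, each library left out, and an unadjusted p below 0.05 with a fold change above 1.5. Tables were made in Python 3.11 (pandas 2.3.3, SciPy 1.17.1, NumPy 2.4.6) and plots with matplotlib 3.10.9.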

Additional observations from a re-analysis of the deposited data

Results flagged for a closer look

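The change of Neil3 with 5-FU differed between the genotypes by a test of the difference itself. The log2 fold change in Tespa1-/- LSKs exceeded that in Tespa1+/+ LSKs by 0.51 (SE 0.13, adjusted p = 0.0358 by edgeR's interaction test on 12 libraries). The call was lost in 11 of 12 fits that left out 1 library, and with library totals, with no filter and with the replicate block. All 3 treated Tespa1-/- libraries were above the 3 untreated ones, while the Tespa1+/+ groups overlapped. The summed level of 20 G2 and M phase genes was also highest in the treated Tespa1-/- libraries (5144 to 5230 CPM, at most 3699 CPM elsewhere), as were those of 10 neutrophil genes (1048 to 1053 CPM, at most 8.42 elsewhere) and 7 erythroid genes (319 to 351 CPM, at most 53.5 elsewhere). Their part in the Neil3 value was not tested.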

How the results depend on the processing

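The rise of Neil3 with 5-FU in Tespa1-/- LSKs was called in all fits at an adjusted p below 0.05. Its call between the genotypes after 5-FU was lost with the replicate block (adjusted p = 0.0799), and its interaction call with library totals (0.0573), with no filter (0.0859) and with the block (0.0667). Accordingly the number of the 10 genes called between the genotypes after 5-FU was 0 with the replicate block and 0 to 0 over the fits that left out 1 library, and for the interaction it was 0 with library totals, no filter or the block and 0 to 1 over the leave-one-out fits. With calls made by p below 0.05 before adjustment together with over 1.5-fold change it was 0 in all 5 comparisons, beside 6.74% to 14.4% of all genes tested. Of 700 member values under alternatives 44 changed sign, 35 of them with 1 library left out, none from a value above 0.10 in size on the log2 scale, and 0 calls were gained and 21 lost. The causes were not tested.

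Over all genes, 5-FU in Tespa1+/+ LSKs gave 2062 calls by DESeq2, 2113 with all 12 libraries in 1 fit and 783 to 1102 with 1 library left out, beside 1352. The untreated genotypes gave 1427 by DESeq2, 454 with the replicate block and 338 to 808 with 1 left out, beside 892. The interaction gave 1534 by DESeq2, 1941 by the unadjusted p and fold change and 573 to 862 with 1 left out, beside 936. The replicate block, of which every library's correlation with its own number was at most 0.03, changed no other call of the 10 genes.

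Values near 0 that changed sign were, with library totals, Ung at 0.0213, Neil3 at 0.0445 and Xrcc1 at 0.0293 for 5-FU in Tespa1+/+ LSKs, Lig3 at 0.00138 for 5-FU in Tespa1-/- LSKs and Parp1 at -0.000965 between the genotypes after 5-FU. Neil3 for 5-FU in Tespa1+/+ LSKs was 0.00410 with at least 10 counts in every library and 0.000265 with the block, Parp1 for 5-FU in Tespa1-/- LSKs was -0.00189 with at least 10 counts, and Tdg between the untreated genotypes was -0.0108 without a filter. With 1 library left out, the log2 fold changes for 5-FU in Tespa1+/+ LSKs ran from -0.24 to 0.11 for Ung, -0.0568 to 0.0480 for Neil3, -0.0790 to 0.12 for Polb and -0.10 to 0.11 for Xrcc1. For 5-FU in Tespa1-/- LSKs they ran from -0.15 to 0.0707 for Mbd4, -0.0302 to 0.13 for Xrcc1, -0.0826 to 0.0631 for Lig3 and -0.00763 to 0.00808 for Parp1. Between the untreated genotypes the ranges were -0.0913 to 0.0670 for Tdg and -0.12 to 0.0800 for Polb, and after 5-FU -0.17 to 0.10 for Tdg and -0.0834 to 0.0808 for Apex1. For the interaction they were -0.24 to 0.11 for Ung, -0.20 to 0.0753 for Tdg, -0.0486 to 0.27 for Mbd4 and -0.0398 to 0.17 for Xrcc1. Smug1 had 23 to 96 counts per library, the fewest of the 10 genes. The treated Tespa1-/- libraries also differ from the rest in neutrophil and erythroid markers, so that changes within LSKs and in the cells sorted cannot be told apart in bulk RNA.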
